A study of Mus musculus with 16 samples.

Results

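The genes examined here encode the enzymes that put methyl groups on histones and DNA and take them off again. They were 43 named genes, matched by symbol to Ensembl identifiers, out of 55401 genes in the deposited tables. Of the 43, 28 were writers (the methyltransferases, with the obligate partners Uhrf1, Eed and Suz12) and 15 were erasers (the TET oxidases and the lysine demethylases), and the 2 classes were kept apart throughout. All 43 passed the filter on low counts and were among the 15277 genes tested.

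The RNA came from cultured CD8+ T cells of OT-I mice, whose T cells carry 1 transgenic receptor for an ovalbumin peptide. The 4 groups were WT TE, TPdh-/- TE, WT TM and TPdh-/- TM, with 4 libraries in each, numbered 1 to 4, 5 to 8, 9 to 12 and 13 to 16. TPdh-/- cells came from mice in which a floxed Pdha1, the gene of the E1 alpha subunit of pyruvate dehydrogenase, was combined with a Cre transgene driven by Cd4 regulatory sequence, so that deletion began in developing thymocytes and was not confined to CD8+ cells. Whether WT mice carried Cre was not stated. Cells of all groups were stimulated with ovalbumin peptide for 3 days and then kept for 4 days in IL-2 (TE, the effector culture) or in IL-15 (TM, the memory-like culture), and mice were 8 to 12 weeks old and of both sexes. The study counts mice as its replicates for this experiment, in a number per condition that differs from the number of libraries held here, and the labels tie no library to a mouse. The p values therefore reflect only how far these libraries spread, which may be technical.

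Depth ran from 53007257 to 73507566 expected counts per library, and the member genes took 0.507% to 0.603% of them, apart from 0.668% in WT TM library 12. Total Pdha1 reads were 68 to 69.5 TPM (a transcript abundance corrected for gene length and library size) in WT TE, 69.5 to 73.6 in TPdh-/- TE, 83.4 to 108 in WT TM and 73.3 to 76.8 in TPdh-/- TM. A count over a whole gene does not single out the deleted stretch, so these values do not check the genotype labels. In TE, Cd8a was 297 to 328 TPM in WT and 289 to 341 in TPdh-/- cells. In TM it was 748 to 856 in WT and 437 to 580 in TPdh-/- cells. Cd8b1 was 419 to 434 TPM in WT TE and 265 to 298 in TPdh-/- TE, and 740 to 846 and 453 to 525 in TM. Cd4 was at most 0.5 TPM in all 16 libraries. The 5 CD4 T cell markers, Cd4 among them, summed to 277 to 333 TPM in WT TE and 150 to 230 in TPdh-/- TE. In TM they summed to 81.5 to 114 in WT and 85.4 to 105 in TPdh-/- cells. The summed level of 9 NK cell markers was 6.27 to 9.96 TPM in WT TM and 75.1 to 116 TPM in TPdh-/- TM (8.04 to 11.1 in WT TE and 10.8 to 20.9 in TPdh-/- TE), and 7 gamma-delta T cell markers summed to 57.6 to 64.3 TPM in WT TM and 161 to 188 TPM in TPdh-/- TM (90.5 to 101 in WT TE and 196 to 317 in TPdh-/- TE). The 10 CD8 T cell markers summed to 6120 to 6620 TPM in WT TM and 5220 to 5280 TPM in TPdh-/- TM, and to 5270 to 6050 in WT TE and 4280 to 4760 in TPdh-/- TE. Macrophage and monocyte markers summed to 5.11 to 6.47 TPM in WT TM and 22.2 to 37.5 in TPdh-/- TM (8.29 to 10.7 and 13.7 to 22.1 in TE), and dendritic cell markers to 1.1 to 2.57 and 9.15 to 18.4 (5.68 to 6.97 and 5.15 to 13.4 in TE). Plasma cell markers summed to 53.4 to 56 TPM in WT TE and 69.8 to 103 in TPdh-/- TE (32.4 to 37.4 and 38.9 to 51 in TM). B cell markers summed to 6.92 to 7.91 TPM in WT TE and 8.21 to 10.4 in TPdh-/- TE (10.4 to 22.2 and 9.1 to 42.9 in TM). In bulk RNA, fewer cells of a type and less RNA per cell cannot be told apart, and the part of these other transcripts in the genotype differences below was not tested.

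Writers move a methyl group from S-adenosylmethionine to cytosine or to a lysine or arginine of a histone tail. Most erasers are dioxygenases that use iron, oxygen and alpha-ketoglutarate, and the amine oxidase Kdm1a uses FAD instead. In T cells Dnmt1 with Uhrf1 copies DNA methylation after each round of replication, Dnmt3a and Ezh2 are known for repressing memory genes during effector differentiation, and H3K4 methylation marks active promoters and enhancers.

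The promoters shown here belong to the 4 writers that fell most from TE to TM in WT cells, and they are printed because these 4 fell together. Each run is the 250 bases before 1 RefSeq transcription start, in GRCm38.p6, on the strand of the gene. For Uhrf1, Dnmt1 and Suv39h1, which have more than 1 listed start, the start whose window held the motif was chosen, and Suv39h2 has 1 listed start. The windows before the other listed starts of Uhrf1, Dnmt1 and Suv39h1 held no match. The chosen windows of Uhrf1, Dnmt1 and Suv39h1 lie inside the annotated span of the gene, downstream of its outermost start. Capitals mark an 8-base match to an E2F site on either strand (TTTCGCGC, TTTGGCGC, TTTCCCGC or TTTGCCGC). The windows are chr17:56304063-56304312 on the plus strand for Uhrf1, chr9:20952624-20952873 on the minus strand for Dnmt1, chrX:8074362-8074611 on the minus strand for Suv39h1 and chr2:3474987-3475236 on the minus strand for Suv39h2.
Uhrf1: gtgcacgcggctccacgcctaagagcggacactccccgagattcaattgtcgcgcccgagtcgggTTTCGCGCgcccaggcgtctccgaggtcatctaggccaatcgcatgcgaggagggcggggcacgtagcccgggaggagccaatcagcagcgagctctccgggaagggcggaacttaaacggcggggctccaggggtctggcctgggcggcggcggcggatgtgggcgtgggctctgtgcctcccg
Dnmt1: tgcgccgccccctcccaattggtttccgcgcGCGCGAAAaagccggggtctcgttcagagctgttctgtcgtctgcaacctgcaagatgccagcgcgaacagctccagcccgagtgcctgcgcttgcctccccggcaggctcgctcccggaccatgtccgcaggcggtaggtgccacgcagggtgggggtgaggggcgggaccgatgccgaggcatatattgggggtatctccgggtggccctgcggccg
Suv39h1: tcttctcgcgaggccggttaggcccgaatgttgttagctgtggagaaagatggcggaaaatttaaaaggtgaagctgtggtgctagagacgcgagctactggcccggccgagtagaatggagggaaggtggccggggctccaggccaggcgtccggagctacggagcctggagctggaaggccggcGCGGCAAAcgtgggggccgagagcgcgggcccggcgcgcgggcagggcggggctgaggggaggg
Suv39h2: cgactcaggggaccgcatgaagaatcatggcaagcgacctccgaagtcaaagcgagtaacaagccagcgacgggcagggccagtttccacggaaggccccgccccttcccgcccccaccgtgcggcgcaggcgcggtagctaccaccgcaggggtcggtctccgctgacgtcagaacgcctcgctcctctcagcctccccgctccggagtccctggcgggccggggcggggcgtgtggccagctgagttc

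The match begins 185 bases before the start of Uhrf1, 219 before that of Dnmt1 (as the reverse complement) and 64 before that of Suv39h1 (as the reverse complement), and Suv39h2 has none of these letters in its window. RefSeq promoters were found for 33 of the 43 members. An E2F spelling was present before at least 1 start of 4 of the 33, namely Uhrf1, Dnmt1, Suv39h1 and the PRC2 subunit Suz12, against 2.16% of the 27025 genes with a promoter and 1.86% of all 32851 promoters. All 4 were among the 10 members with a promoter that fell from TE to TM in WT cells, and the spelling was in 0 of 15 that rose and 0 of 8 that were not called. CCAAT, searched on both strands in the same windows, was in 6 of the 10, 2 of the 15 and 5 of the 8, and in 37.5% of all genes with a promoter (33.8% of all promoters). The cell cycle homology region, spelled TTTGAA or TTCGAA, was in 3 of the 10, 1 of the 15 and 0 of the 8, and in 19.6% of all genes with a promoter (17.1% of all promoters). A gene counts when any of its listed starts has a match, so genes with more listed starts had more windows. The split into members that fell, rose or were not called comes from these same data. These are matches of letters, and binding was not measured. Whether such sites have a part in the fall was not tested.

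Transcript levels of the members spanned from 0.79 TPM (Tet1) to 258.57 TPM (Prmt1), so the classes were far from evenly expressed. In WT TE the most abundant writers were the arginine methyltransferase Prmt1 with 170 ± 13.1 TPM (SD, n = 4 here and below), the H3K27 methyltransferase Ezh2 with 136 ± 7.63, Dnmt1 with 111 ± 10.4 and its partner Uhrf1 with 110 ± 9.69. Dnmt1 and Uhrf1 lay within their spread of each other, while every Ezh2 library (128.12 to 146.61 TPM) lay above every Dnmt1 library (100.54 to 124.54 TPM). The most abundant erasers were the H3K4 demethylase Kdm5a with 39.3 ± 1.68 TPM, Kdm1a, which also removes H3K4 methylation, with 36.7 ± 1.98, and the H3K36 demethylase Kdm2a with 35.4 ± 1.41. Tet1 (1.25 ± 0.152 TPM) and the H3K27 demethylase Kdm6b (2.58 ± 0.56) were the least abundant members, followed by the de novo DNA methyltransferase Dnmt3b (3.74 ± 0.185). Summed over the 28 writers, WT TE held 1290 ± 50.5 TPM and the 15 erasers 276 ± 9.7 TPM.

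Some pairs of paralogs were present in shares that differed between cultures, and others were not. The ratio of Suv39h1 to Suv39h2 was 8.25 ± 0.393 in WT TE and 8.82 ± 0.99 in WT TM, with overlapping ranges. That of Kdm6a to Kdm6b was 8.0 ± 2.02 and 8.91 ± 2.01, also overlapping. Per transcript, Dnmt1 exceeded Dnmt3a 7.47 ± 0.482 times in WT TE and 2.65 ± 0.284 times in WT TM. Tet2 exceeded Tet3 1.83 ± 0.1 times in WT TE, and the ratio in WT TM was 0.907 ± 0.14. The ratio of Ezh2 to Ezh1, the PRC2 catalytic subunits of dividing and of resting cells, was 4.20 ± 0.407 in WT TM (range 3.79 to 4.70) and 3.06 ± 0.426 in TPdh-/- TM (range 2.47 to 3.41), which did not overlap. In TE the same ratio was 4.81 ± 0.435 in WT and 4.88 ± 0.949 in TPdh-/-, with overlapping ranges. Since these ratios are taken within a library, the library total does not enter them. The transcript length estimated for each gene does enter them. For Dnmt3a its mean was 5898 bases in WT TE and 3963 in WT TM.

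Replicates were close, with a median coefficient of variation over the members of 4.13% in WT TE, 7.85% in TPdh-/- TE, 8.28% in WT TM and 6.11% in TPdh-/- TM (all genes tested: 6.71%, 10.4%, 10.4% and 9.06%). WT TM library 12 stood apart: it was the highest of its group for 30 of the 43 members, whereas it was the highest for 35.4% of all genes tested. Without library 12 the median in WT TM was 4.55%. Results that rest on this library are given with and without it.

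Read counts, printed as CPM (counts scaled to a common library total with TMM factors, not corrected for gene length), were compared between groups with edgeR's quasi-likelihood test, and a member was called when its Benjamini-Hochberg adjusted p over all 15277 genes was below 0.05, with no limit on fold. More members were called between the cultures than between the genotypes, as was so for all genes. In WT cells 19 members were higher and 13 lower in TM than in TE (34.2% of all genes tested were called higher and 34.2% lower). In TPdh-/- cells 12 were higher and 18 lower (all genes: 33.0% and 34.6%). Loss of Pdha1 in TM gave 0 members called higher and 10 called lower, where 11.0% of all genes were higher and 7.27% lower, so that 23.3% of the members were called lower. At an unadjusted p below 0.05 edgeR found 2 members higher and 18 lower there. The share of all genes at that unadjusted threshold is not given here, so these counts are not read as particular to the members. In the same comparison limma-trend on log2 CPM called 0 members higher and 11 lower (all 15277 genes: 1692 higher and 1112 lower). DESeq2 called 1 member higher and 12 lower (all 15277 genes: 1805 higher and 1383 lower). In TE 2 members were higher and 1 lower in TPdh-/- than in WT, where 17.2% of all genes were higher and 14.2% lower. The interaction, which is the genotype difference in TM minus the same difference in TE, was called for 2 members upward and 3 downward (all genes: 8.03% and 7.5%).

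**Figure D1:**
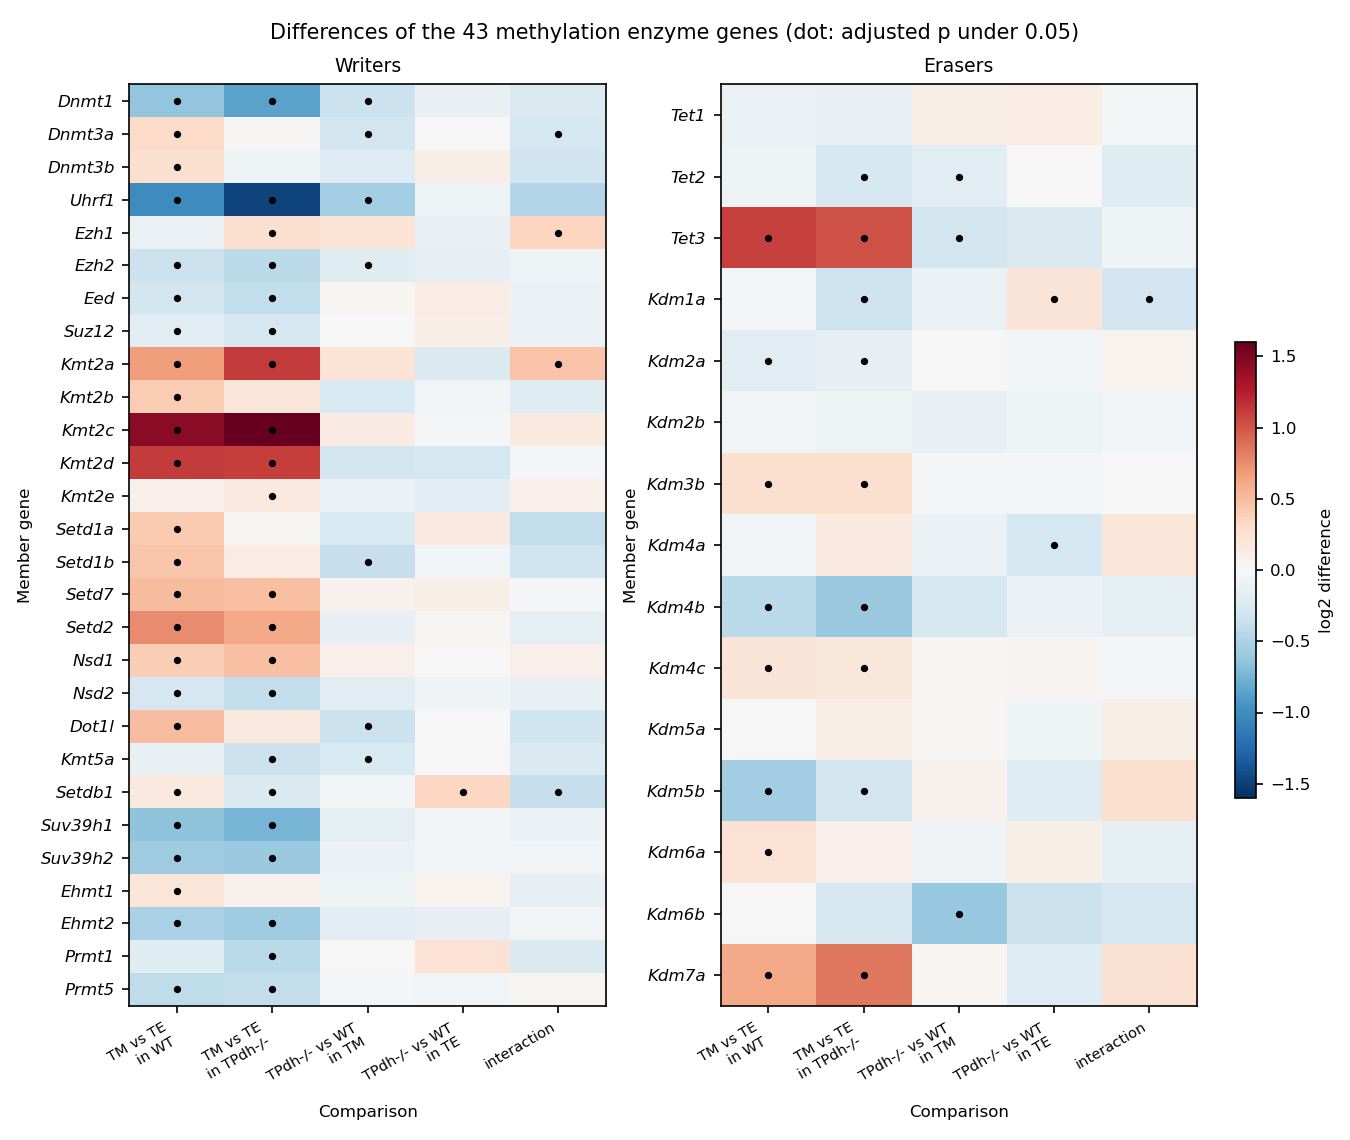
Rows are the 28 writers and 15 erasers, columns the 5 comparisons, colour the log2 difference from edgeR (red higher in the first-named group, blue lower), and a dot marks an adjusted p under 0.05 over all genes tested. The 2 culture columns hold 62 of the 80 dots, and the column for genotype in TM holds 10, all of them blue.

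Among the writers, 14 of 28 were higher and 10 lower in WT TM than in WT TE (median log2 difference 0.11, all genes 0.01), and among the erasers 5 of 15 were higher and 3 lower (median -0.02). In TPdh-/- cells 8 writers were higher and 13 lower (median -0.03) and 4 erasers were higher and 5 lower (median -0.08). The 2 culture comparisons share no library. Of the members that were higher in TM, 10 were called in both genotypes, which is 10 of 19 in WT and 10 of 12 in TPdh-/- cells. All 13 members that were lower in WT TM were also among the 18 lower in TPdh-/- TM. Of all genes tested, 68.5% were called between the cultures in WT and 67.6% in TPdh-/- cells. The share of all genes called alike in both genotypes is not given here, so these overlaps are not read as particular to the members.

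The maintenance branch of DNA methylation fell from TE to TM. Uhrf1, which brings Dnmt1 to half-methylated DNA, stood at 277, 338, 311 and 327 CPM in WT TE, at 340, 321, 271 and 253 in TPdh-/- TE, at 164, 130, 139 and 188 in WT TM and at 89.0, 109, 123 and 104 in TPdh-/- TM. The TE groups overlapped each other, both TM groups lay below every TE library, and every TPdh-/- TM library lay below every WT TM library. The log2 difference between TM and TE was -1.01 ± 0.135 (SE) in WT (adjusted p = 1.22e-06) and -1.48 ± 0.14 in TPdh-/- cells (adjusted p = 1.78e-08). Dnmt1 stood at 476, 534, 501 and 579 CPM in WT TE, at 520, 516, 434 and 455 in TPdh-/- TE, at 353, 304, 292 and 403 in WT TM and at 234, 283, 268 and 278 in TPdh-/- TM. The pattern of overlap was that of Uhrf1. Dnmt1 fell by 0.63 on the log2 scale in WT (SE 0.122, adjusted p = 1.51e-05) and by 0.86 in TPdh-/- cells (SE 0.0899, adjusted p = 4.27e-07). In TPM the cultures overlapped for both genes. WT TM library 12 held 100.19 TPM of Uhrf1 and 107.14 of Dnmt1, and WT TE library 1 held 96.68 and 100.54. With RSEM's transcript lengths as offsets to the counts, the WT differences were -0.79 for Uhrf1 (adjusted p = 6.26e-05) and -0.64 for Dnmt1 (adjusted p = 1.23e-05).

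Both genes were lower in TPdh-/- TM than in WT TM. The log2 difference was -0.55 ± 0.154 for Uhrf1 (adjusted p = 0.00426) and -0.35 ± 0.123 for Dnmt1 (adjusted p = 0.0171). Library 12 held the highest WT TM value of each. Without it Uhrf1 differed by -0.44 (adjusted p = 0.0176) and Dnmt1 by -0.25 (adjusted p = 0.0632), so that Dnmt1 was no longer called. The Dnmt1 call was also lost without TPdh-/- TM library 13. In TE the genotype differences were -0.08 for Uhrf1 and -0.12 for Dnmt1, neither of them called, and the interaction was not called for either (-0.47 and -0.23). All 27 cell cycle markers were lower in TM than in TE in both genotypes, and 14 of the 27 were lower in TPdh-/- than in WT cells within TM and 14 within TE. Of all genes tested, 34.2% were lower in TM than in TE in WT and 34.6% in TPdh-/- cells. Between genotypes 7.27% were lower in TPdh-/- cells within TM and 14.2% within TE. The part of the cell cycle markers in the differences of Uhrf1 and Dnmt1 was not tested.

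The de novo enzyme Dnmt3a went the other way in WT cells. It stood at 79.2, 84.5, 85.4 and 85.3 CPM in WT TE, 82.1, 85.8, 84.8 and 79.6 in TPdh-/- TE, 102, 97.8, 96.3 and 116 in WT TM and 86.6, 83.7, 82.4 and 84.6 in TPdh-/- TM. Every WT TM library lay above all 12 others, while the remaining 3 groups overlapped. In counts Dnmt3a was thus 0.30 ± 0.0656 higher in TM than in TE on the log2 scale in WT (adjusted p = 9.5e-05) and 0.02 higher, not called, in TPdh-/- cells. In TPM it was higher in TM in both genotypes, with log2 ratios of the mean TPM of 1.06 in WT and 0.57 in TPdh-/- cells. It was 0.29 lower in TPdh-/- TM than in WT TM (SE 0.0619, adjusted p = 0.0011) and -0.22 without library 12 (adjusted p = 0.00198). Dnmt3b, at 11.5 to 16.9 CPM, was 0.25 higher in WT TM than in WT TE (adjusted p = 0.00812). Its difference between the genotypes in TM was -0.21 with an adjusted p of 0.0639.

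**Figure D2:**
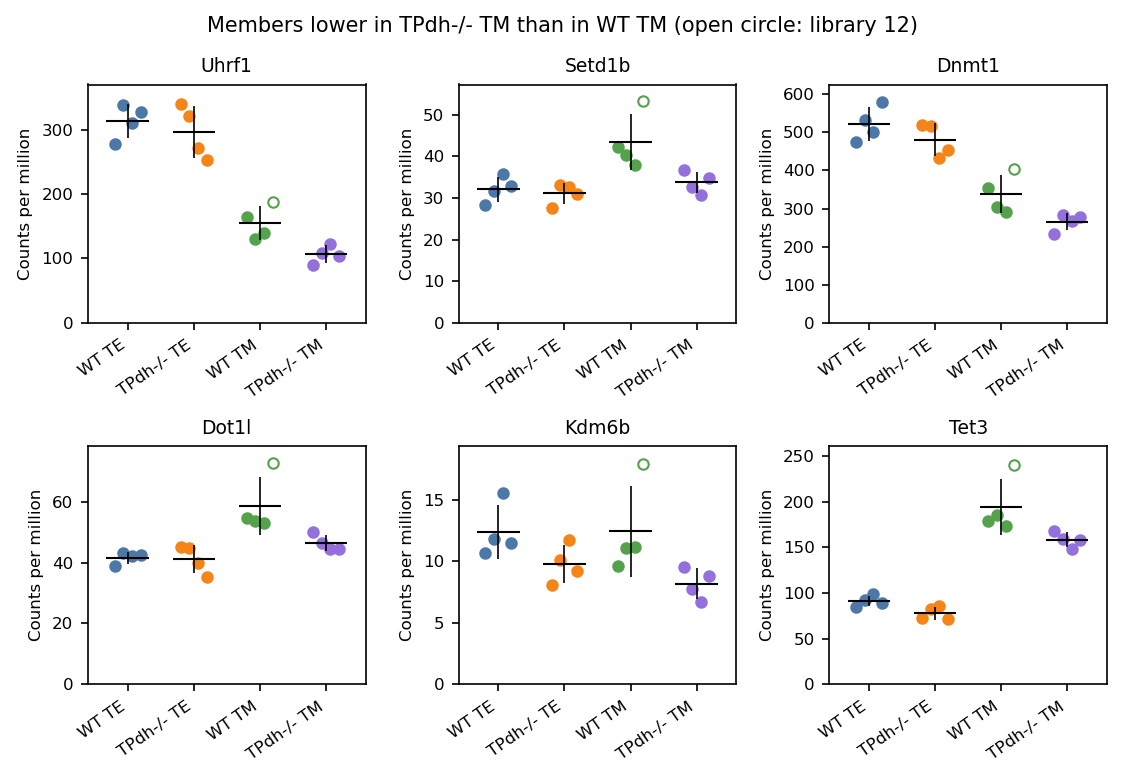
CPM (vertical axis, from 0) of 6 members in the 4 groups, 1 circle per library, with the mean as a horizontal bar and the SD as a vertical line (n = 4). In each panel all 4 TPdh-/- TM libraries lie below all 4 WT TM libraries, and library 12, the open circle, is the highest WT TM value.

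PRC2, the complex that methylates H3K27, was lower in TM by smaller amounts. Ezh2, its main catalytic subunit, was 240 to 263 CPM in WT TE, 213 to 246 in TPdh-/- TE, 180 to 215 in WT TM and 154 to 183 in TPdh-/- TM. Its log2 difference from TE to TM was -0.34 in WT (SE 0.0589, adjusted p = 0.000236) and -0.42 in TPdh-/- cells (SE 0.0801, adjusted p = 3.09e-05). It was also 0.20 lower in TPdh-/- TM than in WT TM (adjusted p = 0.0439), with ranges that overlapped, and this call was lost in 11 of the 26 alternative settings. The core subunits Eed and Suz12 fell by 0.29 and 0.17 in WT and by 0.39 and 0.27 in TPdh-/- cells, and neither differed past the threshold between genotypes in either culture. None of the 3 falls in WT cells was called in TPM, where the log2 differences were -0.02 for Ezh2, 0.12 for Eed and 0.01 for Suz12. With RSEM's transcript lengths as offsets to the counts, Ezh2 (-0.22) and Suz12 (-0.19, adjusted p = 0.0202) were still called lower in WT and Eed (-0.08) was not. The second catalytic subunit, Ezh1, was 0.25 higher in TM than in TE in TPdh-/- cells (adjusted p = 0.00812) and not called in WT (-0.09). Of 9 PRC2 accessory subunits, 2 were higher and 6 lower in TM than in TE in WT cells and the same numbers in TPdh-/- cells. Of all genes tested, 34.2% were higher and 34.2% lower in WT, and 33.0% and 34.6% in TPdh-/- cells. Jarid2, which guides PRC2 to chromatin, fell by 0.63 in WT (adjusted p = 4.78e-07) and Phf1 rose by 0.85 (adjusted p = 5.75e-07). No accessory subunit was called for genotype in TM.

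Of the 8 H3K4 writers, 7 were called higher in TM than in TE and 0 lower in WT cells, which is 87.5% against 34.2% of all genes called higher, with a median log2 difference of 0.47 (all genes 0.01). Kmt2c, a mono-methyltransferase of enhancers, had the largest change of any member. It stood at 112, 101, 113 and 106 CPM in WT TE and at 266, 305, 274 and 332 in WT TM, and at 98.1, 108, 117 and 104 in TPdh-/- TE and 364, 340, 277 and 304 in TPdh-/- TM. No TM library reached down to a TE library, and the genotypes overlapped within each culture. The log2 difference was 1.44 ± 0.0826 in WT (adjusted p = 1.44e-10) and 1.59 ± 0.103 in TPdh-/- cells (adjusted p = 6.06e-11). Its paralog Kmt2d stood at 140, 144, 162 and 150 CPM in WT TE, 108, 129, 141 and 115 in TPdh-/- TE, 261, 280, 291 and 464 in WT TM and 324, 255, 256 and 220 in TPdh-/- TM. The TM libraries were again all above the TE libraries, and library 12 lay far above the other WT TM libraries. Kmt2d rose by 1.12 ± 0.194 in WT (adjusted p = 1.14e-05), by 0.89 without library 12 (adjusted p = 2.48e-06), and by 1.10 ± 0.144 in TPdh-/- cells (adjusted p = 1.48e-05).

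Kmt2a (MLL1), the founding member of the family, stood at 279, 273, 283 and 280 CPM in WT TE, 202, 245, 261 and 241 in TPdh-/- TE, 405, 445, 402 and 521 in WT TM and 593, 532, 462 and 472 in TPdh-/- TM. All TPdh-/- TE libraries were below all WT TE libraries, and the TM groups overlapped. It rose by 0.67 ± 0.0877 from TE to TM in WT (adjusted p = 4.5e-06) and by 1.12 ± 0.115 in TPdh-/- cells (adjusted p = 1.06e-08). Setd7, Kmt2b, Setd1a and Setd1b rose by 0.50, 0.40, 0.42 and 0.44 in WT cells. All 7 calls held without library 12, where Kmt2b rose by 0.24 and Setd1a by 0.25. In TPdh-/- cells 5 of the 8 were called higher, and Kmt2b (0.19), Setd1a (0.02) and Setd1b (0.12) were not. Kmt2e, which has a SET domain without known activity on H3K4, was 0.15 higher in TPdh-/- cells (adjusted p = 0.0447) and not called in WT (0.08). Summed TPM of the 8 genes was 162 ± 5.97 in WT TE, 173 ± 9.22 in TPdh-/- TE, 299 ± 60.0 in WT TM (251 to 288 in libraries 9 to 11 and 386 in library 12) and 279 ± 36 in TPdh-/- TM.

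The genotype separated 1 H3K4 writer in TM. Setd1b, a catalytic subunit of COMPASS, stood at 42.3, 40.4, 38.0 and 53.3 CPM in WT TM and 36.8, 32.7, 30.8 and 34.8 in TPdh-/- TM, against 28.4, 31.6, 35.7 and 32.8 in WT TE and 27.7, 33.1, 32.7 and 31.0 in TPdh-/- TE. The TPdh-/- TM libraries lay below the WT TM libraries and partly within the range of the TE libraries. The log2 difference was -0.37 ± 0.12 (adjusted p = 0.0128), and -0.25 without library 12 (adjusted p = 0.0468). Of 14 further COMPASS subunits, 3 were lower and 0 higher in TPdh-/- TM (Paxip1 by 0.28, Hcfc1 by 0.39 and Cxxc1 by 0.22), and 1 was higher and 0 lower in TPdh-/- TE (Wdr82, log2 difference 0.33, adjusted p = 0.000405). The share called was 21.4% in TM (all genes 18.3%) and 7.14% in TE (all genes 31.4%).

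**Figure D3:**
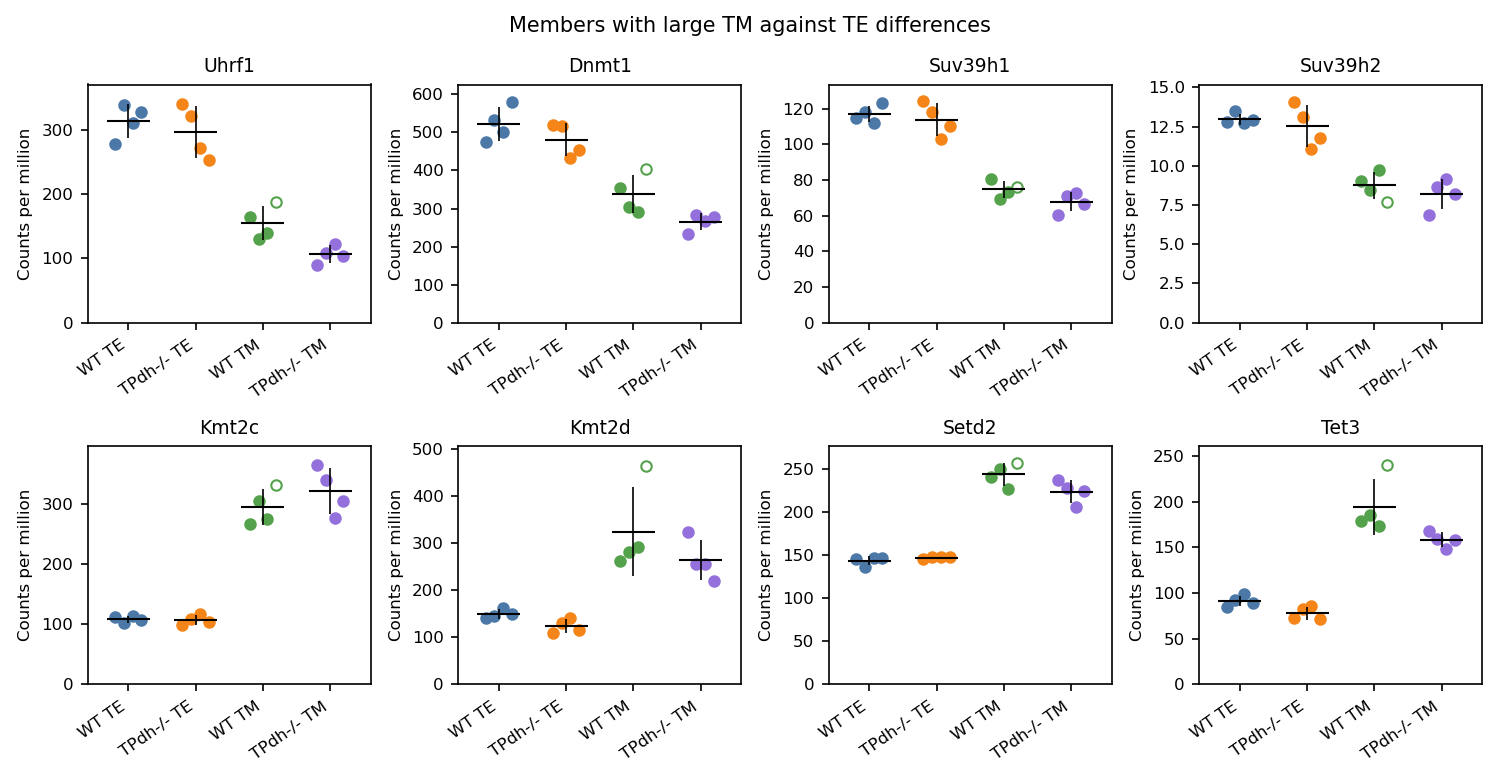
CPM (vertical axis, from 0) of 8 members in the 4 groups, 1 circle per library (open for library 12), with mean and SD (n = 4). Uhrf1, Dnmt1, Suv39h1 and Suv39h2 are lower in both TM groups than in every TE library, and Kmt2c, Kmt2d, Setd2 and Tet3 are higher in both.

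Writers of H3K36 methylation, a mark of transcribed gene bodies, split by enzyme. Setd2, which makes H3K36me3 behind elongating polymerase, stood at 145, 136, 146 and 146 CPM in WT TE, 145, 148, 147 and 147 in TPdh-/- TE, 240, 250, 226 and 257 in WT TM and 237, 227, 205 and 224 in TPdh-/- TM. The cultures did not overlap and the genotypes did. Setd2 rose by 0.76 ± 0.0473 in WT (adjusted p = 6.72e-10) and by 0.61 ± 0.0442 in TPdh-/- cells (adjusted p = 1.34e-08). The H3K36 dimethyltransferase Nsd1 rose by 0.39 in WT and 0.48 in TPdh-/- cells, while its paralog Nsd2 fell by 0.27 and 0.40, all 4 called. In TPM the fall of Nsd2 in WT was not called (-0.15). The ratio of Nsd2 to Nsd1 in TPM was 2.44 ± 0.385 in WT TE and 1.46 ± 0.196 in WT TM.

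Dot1l, the only known H3K79 methyltransferase, was highest in WT TM. It stood at 38.8, 43.2, 42.1 and 42.6 CPM in WT TE, 45.1, 44.8, 40.0 and 35.3 in TPdh-/- TE, 54.6, 53.8, 52.9 and 72.8 in WT TM and 50, 46.6, 44.4 and 44.4 in TPdh-/- TM. All WT TM libraries were above all others. It was 0.49 ± 0.115 higher in TM than in TE in WT (adjusted p = 0.000171) and 0.34 lower in TPdh-/- TM than in WT TM (SE 0.117, adjusted p = 0.0183), and without library 12 the genotype difference was -0.21 with an adjusted p of 0.0631. Kmt5a, which makes H4K20me1 during mitosis, was 0.24 lower in TPdh-/- TM than in WT TM (adjusted p = 0.0173), at 72.7 to 75.2 CPM against 78.9 to 100. Without library 12 its adjusted p was 0.0571. It fell by 0.35 from TE to TM in TPdh-/- cells (adjusted p = 0.000171) and was not called in WT (-0.12).

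H3K9 writers were divided as well. The SUV39 enzymes, which make the H3K9me3 of heterochromatin, fell together. Suv39h1 stood at 115, 118, 112 and 123 CPM in WT TE, 124, 118, 103 and 110 in TPdh-/- TE, 80.3, 69.3, 73.2 and 76.3 in WT TM and 60.6, 71.1, 72.6 and 66.7 in TPdh-/- TM, and Suv39h2 stood lower, at 12.8, 13.5, 12.7 and 12.9 CPM in WT TE, 14.1, 13.1, 11.1 and 11.8 in TPdh-/- TE, 9.06, 8.46, 9.75 and 7.72 in WT TM and 6.88, 8.67, 9.13 and 8.20 in TPdh-/- TM. For both, no TM library reached a TE library, and the genotypes overlapped. Suv39h1 fell by 0.64 in WT (SE 0.0533, adjusted p = 1.43e-07) and by 0.75 in TPdh-/- cells (SE 0.0829, adjusted p = 2.68e-08). Suv39h2 fell by 0.57 (SE 0.0741, adjusted p = 4.29e-05) and by 0.60 (SE 0.117, adjusted p = 2.44e-05).

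Of the G9a and GLP pair, which makes H3K9me1 and H3K9me2, Ehmt2 (G9a) fell by 0.52 in WT and 0.57 in TPdh-/- cells, and Ehmt1 (GLP) was 0.19 higher in WT (adjusted p = 0.00659) and not called in TPdh-/- cells. In TPM Ehmt2 exceeded Ehmt1 3.39 ± 0.259 times in WT TE and 2.02 ± 0.11 times in WT TM. The arginine writer Prmt5, which makes symmetric dimethylarginine, fell by 0.41 in WT and 0.39 in TPdh-/- cells, and Prmt1 fell by 0.43 in TPdh-/- cells (adjusted p = 0.00106) with an uncalled difference of -0.20 in WT. In TPM neither Ehmt2 (-0.21) nor Prmt5 (-0.19) was called lower in WT. Neither arginine writer was called for genotype.

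Setdb1, an H3K9 methyltransferase that silences endogenous retroviruses, was the 1 writer called between genotypes in TE. It stood at 70.5, 67.5, 70.5 and 66.0 CPM in WT TE, 86.6, 87.7, 81.1 and 88.8 in TPdh-/- TE, 73.7, 75.3, 69.9 and 84.7 in WT TM and 76.0, 78.1, 68.5 and 71.2 in TPdh-/- TM. The TE genotypes did not overlap and the TM genotypes did. Setdb1 was 0.33 ± 0.0377 higher in TPdh-/- TE than in WT TE (adjusted p = 0.000415) and differed by -0.05 in TM, and the interaction was -0.37 ± 0.0819 (adjusted p = 0.00529). The TE call held under all 26 alternative settings and the interaction under the 25 run for it. From TE to TM Setdb1 was 0.15 higher in WT (adjusted p = 0.037), with overlapping groups. That WT call was lost in 12 of the 26 settings. In TPdh-/- cells Setdb1 fell by 0.23 from TE to TM (SE 0.0523, adjusted p = 0.00236), without overlap. Setdb1 shares exon positions with Cers2 and Gm37500, and none of these settings separates the reads there.

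Among the TET oxidases, which start the removal of DNA methylation, Tet3 had the largest changes. It stood at 85.0, 91.8, 98.9 and 89.3 CPM in WT TE, 72.1, 82.0, 85.6 and 71.2 in TPdh-/- TE, 179, 185, 173 and 240 in WT TM and 168, 159, 148 and 158 in TPdh-/- TM. The cultures were far apart, and in TM the genotypes did not overlap. It rose by 1.09 ± 0.117 in WT (adjusted p = 8.7e-09) and by 1.02 ± 0.0761 in TPdh-/- cells (adjusted p = 2.26e-08). Tet3 was 0.30 lower in TPdh-/- TM than in WT TM (SE 0.114, adjusted p = 0.0264), and without library 12 the difference was -0.18 with an adjusted p of 0.0928. Tet2, the more abundant paralog in TE, stood at 83.0 to 92.8 CPM in WT TE, 83.7 to 92.3 in TPdh-/- TE, 78.8, 86.5, 82.0 and 87.4 in WT TM and 80.6, 74.4, 68.1 and 73.5 in TPdh-/- TM. It was 0.26 lower in TM than in TE in TPdh-/- cells (SE 0.0585, adjusted p = 0.000481) and 0.17 lower in TPdh-/- TM than in WT TM (adjusted p = 0.0382), with overlapping ranges, the latter not called without library 12 (adjusted p = 0.102). Tet1, at 6.80 to 15.1 CPM, was not called in any comparison.

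Of the histone demethylases, Kdm1a (LSD1) was the 1 called higher in TPdh-/- TE. It stood at 85.7, 78.5, 82.2 and 83.9 CPM in WT TE, 98.1, 95.1, 88.8 and 99.4 in TPdh-/- TE, 82.6, 84.1, 79.3 and 80.4 in WT TM and 77.1, 76.4, 72.8 and 77.0 in TPdh-/- TM. Both cultures separated the genotypes, in opposite directions. The log2 difference was 0.21 ± 0.0452 in TE (adjusted p = 0.00237) and -0.11 ± 0.0274 in TM, not called (adjusted p = 0.125), and the interaction was -0.31 ± 0.0528 (adjusted p = 0.00322). The call in TE held under all 26 alternative settings and that for the interaction under the 25 run for it. From TE to TM Kdm1a fell by 0.33 in TPdh-/- cells (adjusted p = 5.63e-06) and differed by -0.02 in WT. Kdm4a, a demethylase of H3K9 and H3K36, was lower in TPdh-/- TE (82.4, 98.3, 108 and 102 CPM) than in WT TE (121, 113, 122 and 120 CPM), without overlap. The log2 difference was -0.28 ± 0.0869 (adjusted p = 0.00549), and in TPM it was not called.

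**Figure D4:**
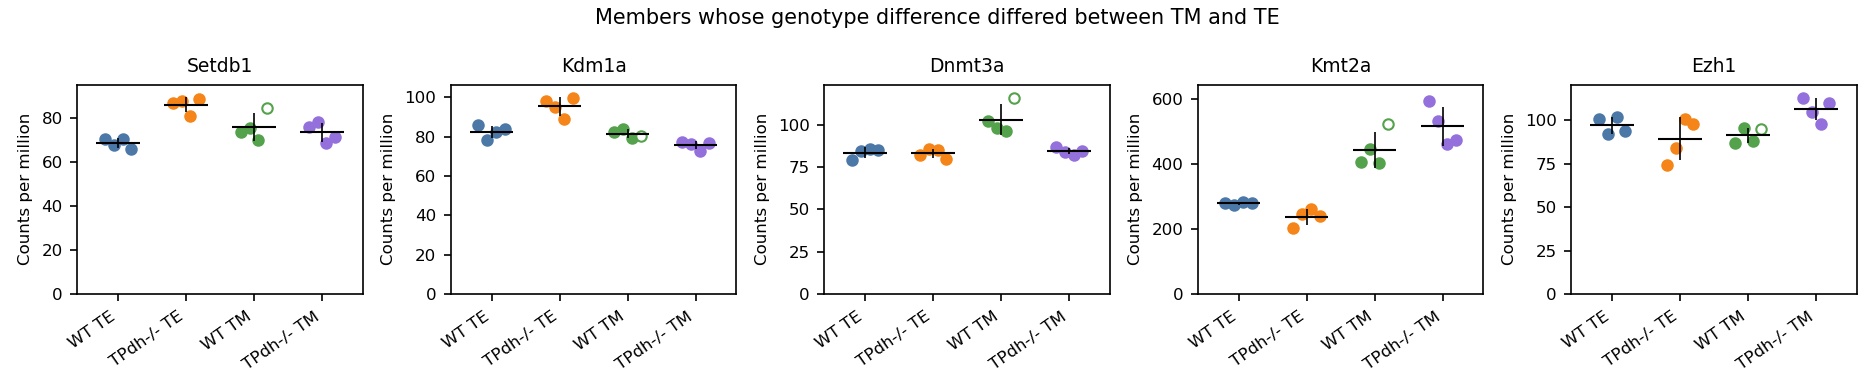
CPM (vertical axis, from 0) of the 5 members whose interaction was called, 1 circle per library (open for library 12), with mean and SD (n = 4). Setdb1 and Kdm1a are higher in TPdh-/- TE than in WT TE and not higher in TPdh-/- TM, Dnmt3a is highest in WT TM, and Kmt2a and Ezh1 have lower means in TPdh-/- TE and higher means in TPdh-/- TM.

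The interaction was also called for Kmt2a (0.45 ± 0.144, adjusted p = 0.0259), Ezh1 (0.34 ± 0.121, adjusted p = 0.0431) and Dnmt3a (-0.28 ± 0.0716, adjusted p = 0.0199). For Kmt2a the genotype differences were -0.23 in TE and 0.22 in TM, neither called in its own culture (adjusted p = 0.063 and 0.117). Without library 12 Kmt2a was called higher in TPdh-/- TM (0.30, adjusted p = 0.0239). Ezh1 stood at 101, 92.2, 102 and 94.1 CPM in WT TE, 74.5, 84.3, 101 and 98.2 in TPdh-/- TE, 87.3, 95.5, 88.3 and 95.0 in WT TM and 113, 105, 98.2 and 110 in TPdh-/- TM. The TM genotypes did not overlap and the TE genotypes did, with differences of 0.22 (adjusted p = 0.0604) and -0.12. The Ezh1 interaction lost its call in 12 of 25 settings, that of Dnmt3a in 5 and that of Kmt2a in 3. With 1 library left out, the count of 2 upward was 0 without library 9 and 1 without library 1, 3, 5, 6, 11, 13, 14 or 16, and the count of 3 downward was 5 without library 10 or 11.

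Of 11 JmjC demethylases, 4 were higher and 3 lower in TM than in TE in WT cells and 3 higher and 3 lower in TPdh-/- cells. In WT these are 36.4% and 27.3%, near the 34.2% of all genes called in each direction. Kdm7a, which acts on H3K9me2 and H3K27me2, stood at 105, 95.8, 107 and 96.4 CPM in WT TE, 73.0, 86.9, 102 and 88.1 in TPdh-/- TE, 153, 163, 153 and 145 in WT TM and 169, 159, 140 and 161 in TPdh-/- TM, so that the cultures did not overlap. It rose by 0.60 ± 0.053 in WT (adjusted p = 2.92e-06) and by 0.84 ± 0.113 in TPdh-/- cells (adjusted p = 5.47e-08). The H3K9 demethylase Kdm3b stood at 140, 141, 147 and 143 CPM in WT TE, 129, 141, 150 and 144 in TPdh-/- TE, 164, 165, 154 and 203 in WT TM and 179, 166, 161 and 165 in TPdh-/- TM. It rose by 0.26 in WT (adjusted p = 0.00307) and by 0.25 in TPdh-/- cells (adjusted p = 0.00423). Kdm4c rose by 0.20 and 0.18, while its relative Kdm4b fell by 0.43 and 0.59. The WT fall of Kdm4b was not called with length offsets (-0.27, adjusted p = 0.1), and neither fall was called in TPM (-0.07 and -0.35). Kdm4b stood at 24.5, 30.9, 31.7 and 24 CPM in TPdh-/- TE and 20.5, 17.2, 17.7 and 18.4 in TPdh-/- TM, with no overlap, and at 28.2, 30.1, 34.6 and 26.6 in WT TE and 21.1, 19.1, 21.0 and 27.6 in WT TM, where library 12 reached into the TE range.

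Among H3K4 demethylases Kdm5b fell while Kdm5a was not called in any comparison. The H3K36 demethylase Kdm2b was likewise not called in any, with log2 differences of -0.12 to -0.04. Kdm5b stood at 49.5, 43.5, 60.7 and 43.9 CPM in WT TE, 34.3, 43.2, 49.4 and 46.3 in TPdh-/- TE, 29.5, 34.4, 32.1 and 38.4 in WT TM and 36.6, 35.8, 29.0 and 39.8 in TPdh-/- TM. The WT groups did not overlap and the TPdh-/- groups did. It fell by 0.56 ± 0.137 in WT (adjusted p = 0.000897) and by 0.29 ± 0.15 in TPdh-/- cells (adjusted p = 0.0486), the latter lost in 17 of 26 settings and the former in TPM alone (-0.28). The H3K27 demethylases differed from each other. Kdm6a was 0.23 higher in WT TM than in WT TE (adjusted p = 0.000377) and not called for genotype. Kdm6b stood at 9.58, 11.1, 11.2 and 17.9 CPM in WT TM and 9.51, 7.73, 6.66 and 8.80 in TPdh-/- TM, against 10.7, 11.8, 15.6 and 11.5 in WT TE and 8.04, 10.1, 11.7 and 9.21 in TPdh-/- TE. The TM genotypes were separated by 9.51 against 9.58. The log2 difference in TM was -0.61 ± 0.226 (adjusted p = 0.0261) and -0.38 without library 12 (adjusted p = 0.102). The call was lost in 9 of the 26 alternative settings. Among them were TPdh-/- TM library 14 or library 15 left out, length offsets, no filter on low counts, TPM and only the groups compared.

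Of the 10 members called lower in TPdh-/- TM, those still called lower without library 12 were Uhrf1, Dnmt3a, Ezh2 and Setd1b, with Kmt2a called higher. Leaving out TPdh-/- TM library 15 or library 16 left 6 called lower in each case. Over the 26 settings Tet2 lost its call in 15, Ezh2 in 11, Kdm6b in 9, Tet3 in 8 and Dot1l in 6. In TPM the 4 called lower were Uhrf1, Dnmt1, Dnmt3a and Ezh2, so Uhrf1, Dnmt3a and Ezh2 were called both in TPM and without library 12. Of these, Ezh2 had CPM ranges that overlapped between the genotypes in TM. In TE the count of 1 member lower in TPdh-/- cells became 6 without library 12, which is in neither group but enters the shared fit, 5 without library 7, 4 without library 13, 3 without library 1, 11 or 15, and 2 without library 6, 9 or 16. Kdm4a was among them each time. The genotype comparison in TM and the culture comparison in WT share the WT TM libraries, library 12 among them.

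TPM and counts did not always move alike. One of the quantities that enter TPM, the length RSEM assigned to a gene (its effective length, the mean length of its transcripts weighted by their estimated abundance), differed between groups for some members. It did not differ for all members whose TPM and counts moved apart: for Suz12 the ratio of mean lengths in WT TM and WT TE was 0.999. In WT TM 18 of the 43 members had a shorter effective length than in WT TE, with no overlap of the groups, and 2 a longer one, against 11.8% and 7.43% of all genes tested. Of the 18, 7 were shorter by 10 percent or more. Dnmt3a had an effective length of 6489, 5594, 5843 and 5668 bases in WT TE, 6435, 6633, 7298 and 7533 in TPdh-/- TE, 3677, 3739, 4137 and 4299 in WT TM and 4811, 4327, 5023 and 4927 in TPdh-/- TM. Every WT TM value lay below every TPdh-/- TM value, and these lay below every TE value. The gene codes for long and short forms of the enzyme from separate starts.

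In TPM Dnmt3a was therefore further apart than in counts, at 12.64, 15.76, 15.31 and 15.97 in WT TE, 14.44, 15.08, 13.4 and 12.21 in TPdh-/- TE, 31.88, 30.84, 26.1 and 35.18 in WT TM and 22.18, 21.97, 18.67 and 18.97 in TPdh-/- TM. No TPdh-/- TM library reached a WT TM library, and every TPdh-/- TM library lay above every TPdh-/- TE library. With effective lengths as offsets in edgeR, its log2 difference from TE to TM in WT was 0.85 (adjusted p = 7.51e-08) where counts gave 0.30, its genotype difference in TM was -0.56 (adjusted p = 0.000103) where counts gave -0.29, and its genotype difference in TE was -0.26 (adjusted p = 0.0204) where counts gave -0.01, not called. With these offsets the Dnmt3a interaction was -0.30 with an adjusted p of 0.0956, not called, where counts gave -0.28. For the H3K36 demethylase Kdm2a the length changed the direction. Kdm2a stood at 158, 154, 166 and 160 CPM in WT TE and 143, 143, 126 and 151 in WT TM, a fall of 0.18 in counts (adjusted p = 0.00918), while its mean effective length was 4717 ± 116 bases in WT TE and 3555 ± 184 in WT TM. With length offsets it was 0.21 higher in WT TM (adjusted p = 0.0221), so no direction is given for Kdm2a. In TPdh-/- cells the reversal was the same in kind, with a fall of 0.13 in counts and a difference of 0.18 with offsets. On the log2(TPM + 1) scale the median of all genes tested was itself 0.117 higher in WT TM than in WT TE, 0.092 higher in TPdh-/- TE than in WT TE and -0.123 in the interaction, and TPM differences are to be read against these shifts.

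**Figure D5:**
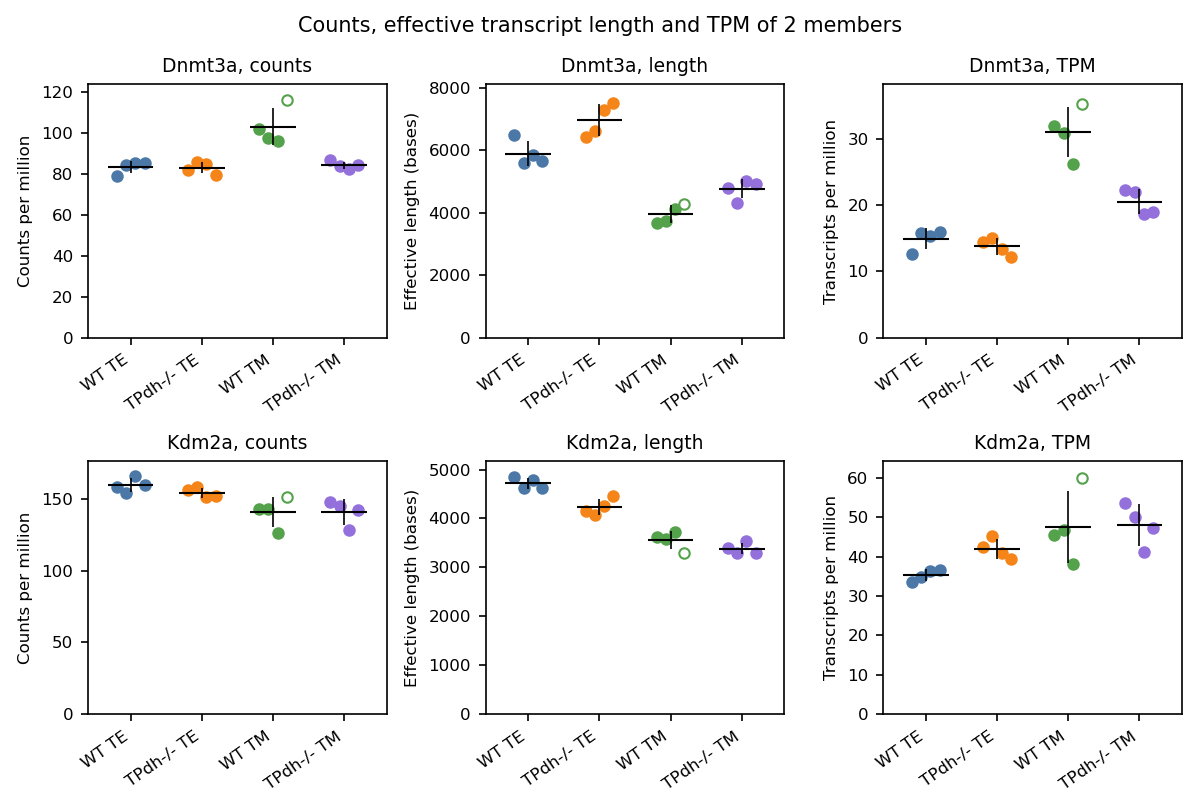
For Dnmt3a (top) and Kdm2a (bottom), CPM, effective length in bases and TPM by group, all axes from 0, 1 circle per library (open for library 12), with mean and SD (n = 4). The Dnmt3a length is 5594 to 7533 bases in TE and 3677 to 5023 in TM, and Kdm2a is lower in TM in counts and higher in TPM.

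Other writers and erasers outside the 43 are given for scale. Of 24 other writers tested, 13 were higher and 5 lower in WT TM than in WT TE (75.0% called, all genes 68.5%). Among them were Nsd3 (0.81 higher), the H3K36 methyltransferase Ash1l (0.89 higher) and the arginine methyltransferase Prmt6 (1.02 higher). Between genotypes 3 of the 24 were higher and 2 lower in TM (20.8% called, all genes 18.3%). In TE 8 were higher and 2 lower (41.7% called, all genes 31.4%). Smyd1, at 4.06 ± 0.802 CPM in WT TE and 1.16 ± 0.111 in TPdh-/- TE, fell by 1.80 in TE (adjusted p = 1.4e-07) and by 1.71 in TM (adjusted p = 4.33e-07). Of 18 other erasers 7 were higher and 6 lower in WT TM than in WT TE (72.2% called, all genes 68.5%). Riox2 fell by 0.40 in TPdh-/- TE (adjusted p = 5.03e-05). Of 19 subunits of PRC1, which ubiquitinates H2A, 9 were higher and 2 lower in WT TM than in WT TE (57.9% called, all genes 68.5%). Phc3 was 0.61 higher in TPdh-/- TE (adjusted p = 4.31e-05), with an interaction of -0.71 (adjusted p = 0.000662). Among 16 readers of methyl marks 2 were higher and 2 lower in TPdh-/- TM than in WT TM (25.0% called, all genes 18.3%). Zbtb38, which binds methylated CpG, was 0.65 higher (adjusted p = 1.65e-05).

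Enzymes of methionine and folate metabolism supply the methyl groups. Of 21 such genes, 11 were higher and 1 lower in TPdh-/- TE than in WT TE, which is 57.1% called against 31.4% of all genes. In TM 1 was higher and 3 lower, 19.0% against 18.3% of all genes. The interaction was called lower for 8 and higher for 0, where 7.5% of all genes were lower. The mitochondrial folate enzyme Mthfd2 was 67.8 ± 1.99 CPM in WT TE and 110 ± 13.3 in TPdh-/- TE (log2 difference 0.69, adjusted p = 5.39e-06), and Shmt2, which feeds serine into the same pathway, was 83.9 ± 6.54 and 135 ± 18.2 (0.69, adjusted p = 0.000177). Ahcy, which clears the S-adenosylhomocysteine left by every methyl transfer, fell from 314 ± 16.8 CPM in WT TE to 113 ± 10.7 in WT TM (log2 difference -1.48, adjusted p = 7.87e-12) and was a further 0.26 lower in TPdh-/- TM than in WT TM (adjusted p = 0.0132).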

How the data were processed

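Expected counts per gene were made by the authors with RSEM 1.3.3 from reads aligned with STAR 2.7.6a to mm10, per the labels. The deposited tables also held TPM and effective lengths (another output of RSEM, in bases), while FPKM was not used. Strand was not kept, and 20 of the 43 members share exon positions with another gene, so that reads there cannot be told apart. Among them are Setdb1 (with Cers2), Suv39h2 (with Dclre1c) and Nsd2 (with Nelfa). Names came from GENCODE M21 and promoters from RefSeq (GRCm38.p6). Expected counts were rounded, filtered with filterByExpr (minimum count 10, minimum total 15) and fitted in edgeR 4.0.16 (R 4.3.3) with TMM factors, 1 mean per group and all 16 libraries. Adjusted p values are Benjamini-Hochberg over 15277 genes. SEs come from the log2 CPM (prior count 2) of the libraries. Alternatives were DESeq2 1.42.0, limma 3.58.1 on log2 CPM or log2(TPM + 1) and log2(TPM + 0.1), other scalings and filters, length offsets and left-out libraries. The test was checked on simulated data. Members, lists and tests were chosen with earlier results of these data known. Library values are printed for called members whose groups did not overlap, up to 4 writers and 3 erasers in each direction by size of change, and for members with a called interaction. Other members are given by ranges or differences, and the effective lengths of Dnmt3a and Kdm2a were singled out after their values were seen.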

Additional observations from a re-analysis of the deposited data

Results flagged for a closer look

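In 12 of 172 combinations of a member and a group, 1 library lay apart from the other 3 by Dixon's test at the 95% level, which chance alone passes in about 1 of 20. Library 12 accounted for the 4 in WT TM. It was the highest for Kmt2d (464 CPM, others 261 to 291), Kmt2b (148, others 102 to 103), Setd1a (108, others 71.0 to 74.8) and Dot1l (72.8, others 52.9 to 54.6).

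In WT TE, library 1 was lowest for Dnmt3a (79.2 CPM, others 84.5 to 85.4) and Ehmt1 (48.1, others 50.9 to 51.3), and library 2 for Setd2 (136, others 145 to 146). In TPdh-/- TE, library 5 was lowest for Tet1 (8.64 CPM, others 12.1 to 12.7) and Ehmt2 (117, others 148 to 154), and library 8 was highest for Kdm6a (65.0, others 61.7 to 62.1). In TPdh-/- TM, library 16 was highest for Tet1 (15.1 CPM, others 8.47 to 9.39) and library 15 lowest for Kdm1a (72.8, others 76.4 to 77.1).

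The genotype difference itself differed between TM and TE, by edgeR's interaction test, for 5 members. Its log2 value was -0.37 for Setdb1 (adjusted p = 0.00529), -0.31 for Kdm1a (adjusted p = 0.00322), -0.28 for Dnmt3a (adjusted p = 0.0199), 0.34 for Ezh1 (adjusted p = 0.0431) and 0.45 for Kmt2a (adjusted p = 0.0259). What these differences come from was not tested.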

How the results depend on the processing

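Of 80 called differences of a member, 53 were kept under every alternative run for them and 27 were lost under at least 1. There were 26 alternatives, of which the fit to only the groups compared was not run for the interaction, since that uses all 4 groups, leaving 25. No paired analysis was possible because the groups share no replicate numbers. For genotype in TM, 4 members were lower with log2(TPM + 1) and with log2(TPM + 0.1), 6 with only the groups compared and 6 without libraries 5 and 12 together, and 1, 1 and 3 were higher with DESeq2, only the groups compared and both libraries left out (leaving out 1 library: 4 to 11 lower, 0 to 1 higher). For genotype in TE, 3 were lower with RLE factors and without a filter, 2 with length offsets, limma on log2 CPM and both libraries left out, 5 with DESeq2 and with only the groups compared, and 0 in TPM at either pseudocount, where 8 were higher (leaving out 1 library: 1 to 6 lower, 2 to 3 higher). For TM against TE in WT, 4 were lower in TPM at either pseudocount (leaving out 1 library: 12 to 14 lower, 18 to 19 higher), and in TPdh-/- cells leaving out 1 library gave 16 to 17 lower and 11 to 16 higher. For the interaction, 10 were lower in TPM at either pseudocount and 5 with DESeq2, and 1 was higher with length offsets and 0 in TPM (leaving out 1 library: 2 to 5 lower, 0 to 3 higher). The interaction of Ezh1 and Kmt2a was lost together without WT TM library 9.

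Directions reversed for Kdm2a in WT (TM against TE: 0.21 with length offsets, 0.40 and 0.41 in TPM) and in TPdh-/- cells (0.18 with offsets, 0.19 in TPM at either pseudocount), for Eed in WT (0.12 and 0.13 in TPM) and for Suz12 in WT (0.01 in TPM at either pseudocount). Outside the 43, Atf7ip in TE reversed (0.03 with offsets, 0.15 in TPM), as did the interaction of Kmt5b (-0.06 in TPM). In TPM, as log2(TPM + 1) and log2(TPM + 0.1), the share of all calls that were higher was 84.0% and 84.8% for genotype in TE (54.8% in counts), 65.6% and 65.5% for TM against TE in WT (50% in counts), and 18.6% at both for the interaction (51.7% in counts). The cause of these changes was not tested, apart from effective length for Dnmt3a and Kdm2a, where the offsets gave the change by construction.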
